A study of Mus musculus with 11 samples.

Results

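The early response of palatal mesenchyme to platelet-derived growth factor A (PDGFA) was read by setting cells given the ligand for 1 h against the same kind of cells starved of serum. The cells are mouse embryonic palatal mesenchyme cells, cultured from the palate of E13.5 embryos, when the palatal shelves are growing. They were grown in medium with 10% fetal bovine serum and starved overnight in 0.1% serum, and both groups share that starvation. Then 4 libraries were made from starved cells and 4 from cells given 30 ng/mL PDGFA for 1 h, out of 11 libraries in all. The other 3, from cells treated for 1 h with FGF1 at 50 ng/mL and heparin at 1 µg/mL, are quoted only beside the members. Strain, sex and genotype of the embryos, the number of embryos behind a culture and whether the replicates were separate cultures are not given in the labels. The measurement was polyA RNA-seq, deposited as 1 FPKM value (fragments scaled to transcript length and library total) for each gene row and group, with a lower and an upper bound. The members were the rows with at least 1 FPKM in either group, no failed estimate and a transcript of at least 200 nt, which left 11472 of 23286 rows. Of the 11662 rows that reached 1 FPKM, 113 were left out for a shorter transcript, 76 for want of a matched length and 1, Thbs1, a matrix gene and early response gene, for a failed estimate. The estimate of the collagen gene Col1a1 failed in both groups, where it is listed at 0.

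PDGFA is a secreted dimer that binds the receptor tyrosine kinase PDGFRA, and in the developing face the ligand comes mostly from epithelium while the receptor sits on mesenchyme. The active receptor recruits PI3-kinase and the RAS-ERK cascade. ERK phosphorylates ternary complex factors that sit with serum response factor (SRF) on the promoters of immediate early genes, which are transcribed within minutes from factors already present in the cell. A second set of SRF partners, the myocardin-related factors (MRTFs), is released when actin polymerises and serves actin and adhesion genes.

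Each group had a single value per row, so no spread between libraries, no SD and no test between replicates stands behind the statements below. The rule for a call, in either direction, was that the deposited intervals of both groups lay wholly apart and that each value lay inside its own interval. What confidence level these bounds stand for is not given in the files or labels. After an FPKM value, its interval stands in square brackets. Fold ratios are given only where the starved value was at least 1 FPKM, and log2 folds were taken on FPKM + 0.5, so the change of low rows is understated.

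After 1 h of PDGFA, 36 of 11472 rows rose (0.314% of the rows compared) and 0 fell (0%). In the plot of all rows the mass of genes lay along the diagonal. The log2 fold had a median of -0.0047, with quartiles of -0.14 and 0.16, a 5th percentile of -0.32 and a 95th of 0.47. Values above the starved value were found in 5626 rows (49%) and values below it in 5846 (51%). A log2 fold of 1 or more was reached by 92 rows (0.802%), and one of -1 or less by 2 (0.0174%). By this rule the rows called at 1 h were thus few, and all lay on the upper side. Of the 36, 14 were under 1 FPKM in starved cells and could be called only higher. After quantile normalization 9 rows were called lower.

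**Figure D1:**
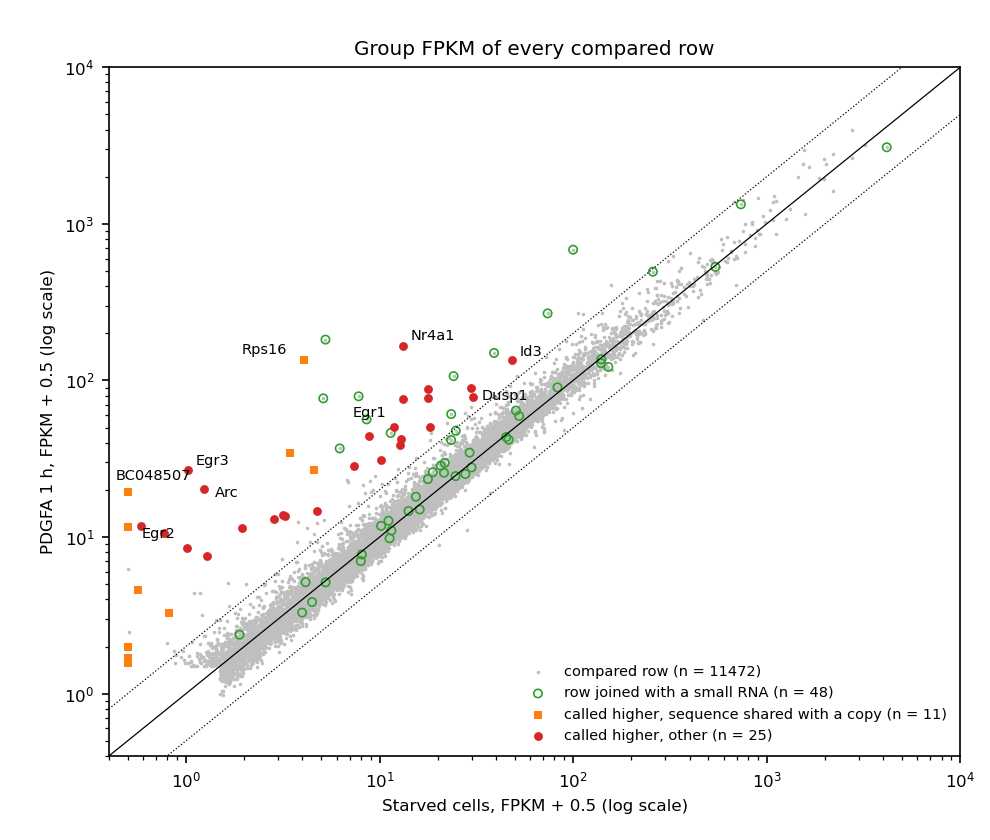
Group FPKM + 0.5 of each of the 11472 compared rows, starved cells on the x axis and PDGFA on the y axis, both on log scales. The solid line marks equal values and the dotted lines 2-fold differences. Red points are the 25 called rows counted as without close copies, and orange squares the 11 called rows that share sequence with a copy. Green circles are the 48 rows that join a gene with a small RNA, of which 0 were called.

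The size of change that could be called was set by the widths of the intervals. The bounds lay 25.5% either side of the value in starved cells at the median (quartiles 22.7% and 30.7%) and 49.6% with PDGFA (47.1% and 56.1%). At those widths a rise had to reach 2.46-fold at the median and a fall 2.02-fold, over 11019 rows. Low rows needed more. Among rows at 1 to 5 FPKM in starved cells the median rise needed was 3.11-fold and 8 of 2820 were called. At 5 to 20 FPKM it was 2.43-fold and 11 of 4675 were called. At 20 to 100 FPKM 3 of 3192 rows rose, and at 100 FPKM or more 0 of 644, while 14 of the 141 rows under 1 FPKM in starved cells rose. Those 141 entered the comparison only through their PDGFA value, so that they stood higher was fixed by the minimum. Without them 22 of 11331 rows rose (0.194%), 48.4% stood above the starved value and the median log2 fold was -0.0083.

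Of the 36 rows that rose, 25 are counted here as genes without close copies, spread over 13 chromosomes. The remaining 11 share sequence with a copy elsewhere in the genome and are given apart. The division is not sharp, since Acta1 among the 25 shares 4.45% of its sequence words and Prdx6b among the 11 shares 3.43%. The 25 had a median log2 fold of 2.12. In the 19 of them with at least 1 FPKM in starved cells the ratio ran from 2.60 to 13.1, with a median of 4.37. By the lists used here, 13 encode immediate early transcription factors, 4 are other immediate early genes and 8 are in neither list.

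**Figure D2:**
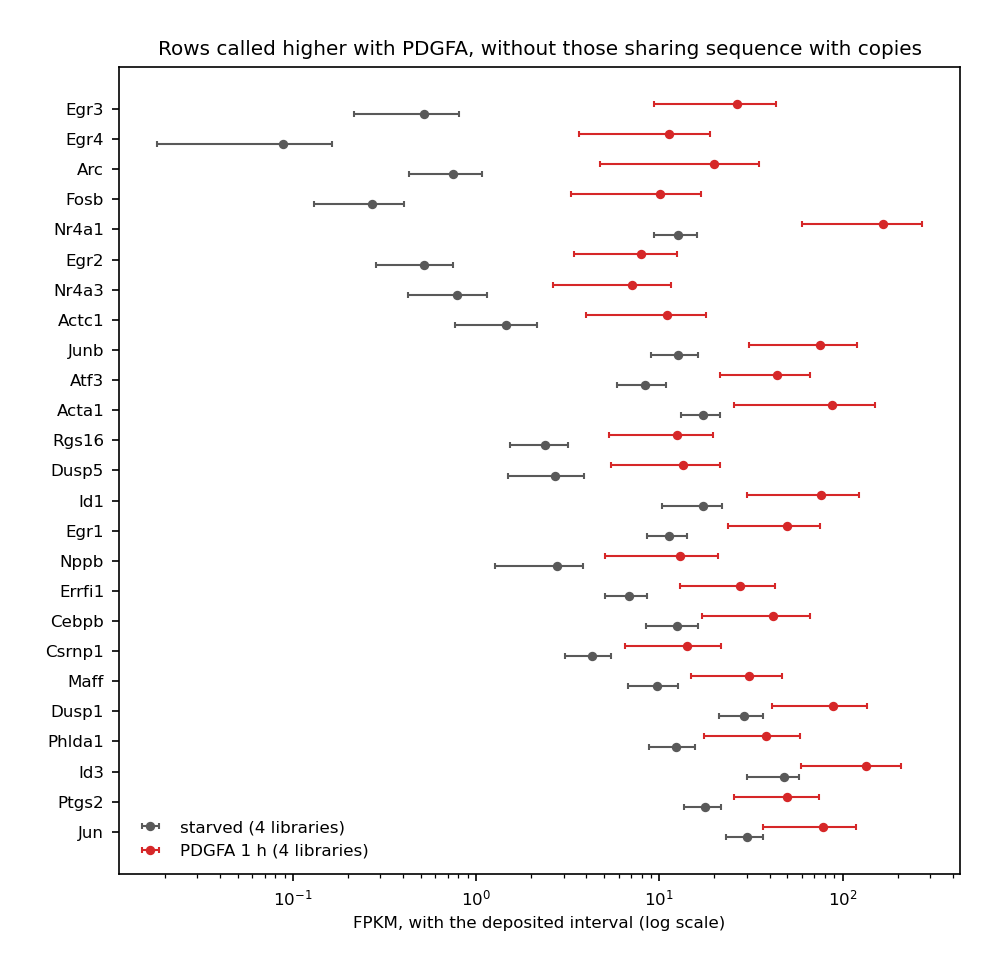
FPKM (points) and deposited interval (lines) of the 25 called rows counted as without close copies, ordered by log2 fold. The axis is logarithmic, and values are for the 4 starved and the 4 PDGFA libraries. The intervals lie farthest apart for Egr4 and Egr3 and almost touch for Jun and Id3.

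The list with the most calls was that of immediate early transcription factors. Like the other lists, it was chosen with earlier results of these data known and holds genes known to respond. Of 30 compared, 13 rose, all 30 stood above the starved value, and their median log2 fold was 1.27 (0.314% and -0.0047 over all rows). Egr2, Egr3, Egr4, Fosb and Nr4a3 were under 1 FPKM in starved cells and entered only through PDGFA. Without them 8 of 25 rose, all 25 stood above the starved value and the median was 1.04. The median of the 30 was 1.25 after quantile normalization and 1.12 with a joint trend on GC content, length and level removed. The EGR family of zinc-finger factors rose in all 4 members. Egr4 (chr6:85511122-85513542) went from 0.0878 FPKM [0.0181 to 0.163] to 11.2 [3.65 to 18.8], and Egr2 (chr10:67537869-67542188) from 0.519 [0.283 to 0.745] to 7.96 [3.40 to 12.5]. Egr3 (chr14:70077445-70080157) ended highest of these 3, at 26.5 FPKM from 0.520. Egr1, the member best expressed in starved cells, rose 4.37-fold and ended at 49.7 FPKM. The 3 members that were near silence thus had the wider relative gap, and Egr1 the higher level.

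Among AP-1 subunits, the FOS and JUN proteins that pair on DNA, 3 of 7 rose (0.314% of all rows did). The 7 belong to the list of immediate early transcription factors and were not a list of their own. Fosb (chr7:19302696-19310045) went from 0.269 FPKM [0.131 to 0.403] to 10.1 [3.31 to 16.9]. It entered only through PDGFA, so that it stood higher was fixed by the minimum. Junb (chr8:84976909-84978748) went from 12.7 [8.98 to 16.2] to 75.6 [30.7 to 121]. Jun (chr4:95049036-95052222) went from 29.9 [23.1 to 36.8] to 77.8 [36.9 to 119], a 2.60-fold rise whose nearest bounds were only 1.002-fold apart. The call for Jun ended after quantile normalization and with the joint trend removed. Fos itself stood at 2.62 FPKM [1.69 to 3.56] in starved cells and 6.76 [3.07 to 10.4] with PDGFA, and these intervals overlapped. Fosl1 (3.70 and 10.9 FPKM), Fosl2 (30.5 and 52.3) and Jund (45.8 and 78.9) also had overlapping intervals. Fos, Fosl1, Fosl2 and Jund are named outside the naming rule, after their values were seen.

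The NR4A orphan nuclear receptors split. Nr4a1 (chr15:101266846-101274794) had the largest ratio of the 19 genes with at least 1 FPKM in starved cells, 13.1-fold, with nearest bounds 3.75-fold apart. Nr4a3 (chr4:48051248-48083352) went from 0.791 FPKM [0.425 to 1.15] to 7.12 [2.63 to 11.6]. Nr4a2, named after its value was seen, stood at 4.57 and 5.71 FPKM and was not called. No test of the difference among these 3 was possible.

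The other factors that rose had ratios from 3.16 to 5.23. Atf3 (chr1:191170297-191183333), a stress-responsive repressor of the CREB family, rose 5.23-fold, from 8.37 FPKM [5.88 to 10.8] to 43.8 [21.3 to 66.3]. Cebpb (chr2:167688915-167690418), a leucine zipper factor of fat cell and inflammatory programmes, rose 3.37-fold to 41.8 FPKM [17.2 to 66.3]. Csrnp1 (chr9:119971166-119984658) rose 3.31-fold to 14.1 FPKM [6.48 to 21.7]. Maff (chr15:79347678-79359076), a small MAF protein that lacks an activation domain, rose 3.16-fold to 30.7 FPKM [14.9 to 46.5]. The Cebpb call ended with the joint trend removed, at a log2 fold of 1.31 in place of 1.71.

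Of 38 other immediate early genes compared, 4 rose, 35 had a PDGFA value above the starved one, and 0.70 was the median log2 fold. Over all rows 0.314% rose and 49% stood above the starved value. Without Arc, which was under 1 FPKM in starved cells, the counts and median of the list were 3 of 37, 34 and 0.68. Arc (chr15:74669081-74672570), a synaptic capsid-like protein also induced by serum in fibroblasts, went from 0.746 FPKM to 19.9. Errfi1 (chr4:150855091-150868880), an inhibitor of EGF receptor kinases, went from 6.84 FPKM [5.06 to 8.61] to 27.7 [12.9 to 42.5]. Phlda1 (chr10:111506286-111508649) rose 3.10-fold to 37.97 FPKM [17.5 to 58.4], and its call ended with the joint trend removed, at a log2 fold of 1.37. Ptgs2 (chr1:150100124-150108012), the inducible prostaglandin synthase, rose 2.82-fold to 49.8 FPKM [25.5 to 74.2]. Ptgs2 had the lowest GC content of the 25, 40.0%, and its log2 fold was 1.47. It was the only called gene among 11 compared members of the list of hyaluronan and prostaglandin synthesis. In that list Has2, a hyaluronan synthase gene, stood at 14.8 FPKM without and 11.8 with PDGFA, with overlapping intervals.

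Genes that restrain receptor signalling responded unevenly. Of 10 compared DUSP genes, which encode phosphatases of MAP kinases, 2 rose and 9 stood above the starved value (0.314% and 49% of all rows did). Their median log2 fold was 0.79, and 0.64 with the joint trend removed. Dusp5 (chr19:53529318-53541322), which dephosphorylates nuclear ERK, went from 2.69 FPKM [1.48 to 3.89] to 13.4 [5.44 to 21.3]. Dusp1 (chr17:26505591-26508472) went from 29.1 [21.3 to 36.9] to 89.0 [41.3 to 137]. Dusp6 (10.6 and 21.5 FPKM) and Dusp4 (5.85 and 12.1) had ratios of 2.03 and 2.06 without intervals that lay apart. Of 16 compared feedback inhibitors of receptor tyrosine kinases only Errfi1 rose, and the median was -0.01. Spry2 stood at 11.7 and 19.2 FPKM and Spry4 at 4.17 and 5.84, with overlapping intervals in both. Rgs16 (chr1:153740353-153745468), which speeds the GTPase of heterotrimeric G proteins and so limits a different class of receptor, went from 2.36 FPKM [1.53 to 3.18] to 12.5 [5.33 to 19.7].

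Promoters of the called genes were read from RefSeq (build GRCm38.p6, the same assembly as mm10) as windows from 250 bases before to 50 after an annotated start. There were 30 windows for 20 of the 25 genes, and motifs were searched on both strands. Arc, Phlda1, Egr1, Egr3 and Id1 had no window, so their promoters were not searched. The CArG box, the SRF binding motif, was found in 4 of the 20 genes, Acta1, Actc1, Dusp5 and Egr2, where 1.81% of all 27025 genes with a window held it. Some genes have several overlapping windows, so matches are counted by gene, and the boxes in these 4 genes are 6 different sites. The 4 are shown because they carry the motif of SRF in genes of 3 different classes that rose, with the box in capitals.

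Egr2, chr10:67537619-67537918 (plus strand): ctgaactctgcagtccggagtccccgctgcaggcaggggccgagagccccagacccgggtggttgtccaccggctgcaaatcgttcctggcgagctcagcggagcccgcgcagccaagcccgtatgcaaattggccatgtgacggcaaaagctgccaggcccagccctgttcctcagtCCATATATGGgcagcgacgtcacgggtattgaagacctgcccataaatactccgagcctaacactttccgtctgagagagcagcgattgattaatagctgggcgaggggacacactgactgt
Dusp5, chr19:53528895-53529194 (plus strand): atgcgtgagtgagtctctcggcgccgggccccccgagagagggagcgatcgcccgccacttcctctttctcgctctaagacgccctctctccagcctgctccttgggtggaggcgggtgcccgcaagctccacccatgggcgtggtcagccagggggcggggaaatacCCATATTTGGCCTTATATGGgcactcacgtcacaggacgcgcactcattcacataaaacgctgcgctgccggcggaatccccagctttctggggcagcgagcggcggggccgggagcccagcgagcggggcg
Acta1, chr8:123894726-123895025 (minus strand): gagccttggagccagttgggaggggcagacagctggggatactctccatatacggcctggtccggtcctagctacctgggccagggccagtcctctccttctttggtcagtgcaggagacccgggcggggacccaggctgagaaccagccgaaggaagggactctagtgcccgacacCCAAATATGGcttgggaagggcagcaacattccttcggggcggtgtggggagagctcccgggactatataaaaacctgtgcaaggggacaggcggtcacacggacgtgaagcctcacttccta
Actc1, chr2:114052826-114053125 (minus strand): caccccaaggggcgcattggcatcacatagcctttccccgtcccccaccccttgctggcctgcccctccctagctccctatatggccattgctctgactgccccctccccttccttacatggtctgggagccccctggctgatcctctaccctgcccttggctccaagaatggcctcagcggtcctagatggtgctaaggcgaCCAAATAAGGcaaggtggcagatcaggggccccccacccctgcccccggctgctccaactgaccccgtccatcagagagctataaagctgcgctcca

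In Egr2 the box began 72 bases before the annotated start of this window, in Acta1 73 and in Actc1 47. In Dusp5 a pair of boxes began 82 and 72 bases before it and abut each other. The Dusp5 row in the table starts downstream of the RefSeq start used for this window. A match is a string of letters and shows neither binding nor use in these cells. The cAMP response element TGACGTCA was found in 3 genes, Dusp1, Errfi1 and Maff (2.03% of all genes), and the Dusp1 window is shown because Dusp1 is also in the list of CREB targets.

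Dusp1, chr17:26508423-26508722 (minus strand): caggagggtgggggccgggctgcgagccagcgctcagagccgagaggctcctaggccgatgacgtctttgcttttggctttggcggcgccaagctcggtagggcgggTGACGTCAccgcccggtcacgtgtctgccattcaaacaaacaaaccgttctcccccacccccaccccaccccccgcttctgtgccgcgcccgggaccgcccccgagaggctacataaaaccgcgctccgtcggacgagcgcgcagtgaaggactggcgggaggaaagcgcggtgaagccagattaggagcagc

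In it the element begins 143 bases before the start. The EGR motif GCGTGGG was in 5 of the 20 genes (5.74% of all) and the AP-1 motif TGACTCA in 1 (5.95%), Csrnp1. The ETS motif CCGGAAG was in 0 (9.93%). The GC box GGGCGG was in 16 genes (38.2%) and the TATA box TATAAA in 6 (15.7%). The EGR motif and the GC box can share bases. Of 12 compared CREB target genes 3 rose, Nr4a1, Nr4a3 and Dusp1 (0.314% of all rows did). The list's median was 0.22 (2 of 11 and 0.15 without Nr4a3, which entered only through PDGFA).

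The list of actin and adhesion genes served by SRF with MRTFs held no call. It does not include Acta1 and Actc1, which rose and are given below. Of 33 compared members 0 rose (0.314% of all rows did), 29 stood above the starved value (49% of all rows did), and the median log2 fold was 0.48 (0.37 after quantile normalization and 0.30 with the joint trend removed). Cnn1, a calponin that binds actin filaments, stood at 112 FPKM [72.7 to 151] in starved and 265 [73.4 to 457] in PDGFA cells. Actb stood at 1552 [980.4 to 2118] and 2971 [842 to 5091], and the myosin light chain gene Myl9 at 750.3 [483 to 888] and 1425 [533 to 2314]. The upper values are large while the intervals are wide on the PDGFA side. Vcl, which encodes the adhesion protein vinculin, stood at 185 FPKM [149 to 220.02] and 267 [217 to 316], a ratio of 1.44, and its intervals were narrower than the median of all rows in both groups. It was the nearest gene below the calling limit apart from a histone row with copies. Srf itself stood at 28.2 FPKM [22.1 to 34.3] and 58.4 [27.5 to 89.3].

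The 2 actin genes that rose are the striated muscle ones. Actc1 (chr2:114047289-114052811), cardiac alpha-actin, went from 1.46 FPKM [0.767 to 2.14] to 10.96 [4.00 to 17.9]. Acta1 (chr8:123891758-123894775), skeletal alpha-actin, rose 5.07-fold with nearest bounds 1.19-fold apart. Acta1 shares 4.45% of its 31-base words with another locus, more than any other of the 25, and Actc1 shares 0.83%. Other actin genes stood far higher in both groups, such as Actb at 1552 and 2971 FPKM. The part of shared sequence in the rises of Acta1 and Actc1 was not tested. Both are also in the list of skeletal muscle markers. Of its 14 markers 8 were compared and all 8 stood above the starved value (49% of all rows did). But 4 of them, Myog, Des, Tnni1 and Tnnt1, entered only through PDGFA, so that they stood higher was fixed by the minimum. That leaves 4 markers, of which 2 are Acta1 and Actc1. The summed FPKM of the 14 was 30.1 in starved and 119 in PDGFA cells. Most of that sum is Acta1 and Actc1. Myog stood at 0.687 and 1.56 FPKM, Des at 0.751 and 1.82 and Myh3 at 0.322 and 0.941, while Myod1 (0.0712 and 0.258), Myf5 (0.0634 and 0.0602) and Ttn (0.0157 and 0.0172) were near 0 in both groups. The part of muscle cells in the rise of Acta1 and Actc1 was not tested. In bulk RNA, a different number of cells of a type and a different amount of RNA in each cell cannot be told apart. The 7 compared smooth muscle and pericyte markers all stood above the starved value, with a median of 0.54, and none rose (0.314% of all rows did). Acta2 stood at 2745 and 3996 FPKM, and Myocd at 0.158 and 0.156.

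Id1 and Id3, partners that block basic helix-loop-helix factors and are known for their response to BMP ligands, both rose. Id1 (chr2:152736274-152737410) rose 4.42-fold with nearest bounds 1.36-fold apart. Id3 (chr4:136143822-136145392) rose 2.80-fold with nearest bounds 1.03-fold apart. They were the called members among 19 compared TGF-beta and BMP response genes, of which 16 stood above the starved value (median 0.59). Over all rows 0.314% rose and 49% stood above it. Id2 stood at 16.4 FPKM [10.8 to 20.6] and 29.7 [15.1 to 44.4]. The Id3 call ended after quantile normalization and with the joint trend removed.

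Among 27 compared secreted factors, only Nppb rose and 23 stood above the starved value (median 0.20), where 0.314% and 49% of all rows did. Without Il11 and Bmp2, which were under 1 FPKM in starved cells, 21 of 25 stood above it and the median was 0.18. Nppb (chr4:147985789-147987205), which encodes the B-type natriuretic peptide, went from 2.76 FPKM [1.27 to 3.81] to 13.03 [5.03 to 20.8]. Hbegf, a membrane-bound ligand of the EGF receptor, stood at 11.98 [8.80 to 15.1] and 26.8 [13.97 to 39.6]. Edn1, the endothelin that patterns the jaw, stood at 4.31 and 6.25 FPKM and the cytokine Lif at 7.21 and 9.70.

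The receptor system itself was not called in either direction. Pdgfrb stood at 71.1 FPKM [55.2 to 86.9] in starved and 63.9 [32.4 to 95.3] in PDGFA cells. Pdgfra, the receptor for this ligand, was listed far lower, at 3.87 [2.95 to 4.79] and 3.52 [1.70 to 5.34]. The cells also carried mRNA for the ligands, with Pdgfa at 49.7 and 58.5 FPKM and Pdgfc at 46.8 and 43.1. The 7 compared ligand and receptor genes had a median of -0.08, which turned to 0.04 with the joint trend removed. Of 18 RAS-ERK cascade genes and 24 PI3-kinase pathway genes 0 were called, with medians of 0.04 and 0.01 that turned negative after quantile normalization. Hras (52.0 and 84.2 FPKM) and Map2k2 (45.7 and 72.0) were the farthest from the starved value in the cascade, and Irs2 (16.1 and 23.9) in the PI3-kinase list. Of 12 ETS factors 0 were called (median -0.03, and 0.05 with the joint trend removed). With 0.314% of all rows called, lists of these sizes would hold about 0 calls, so the lack of calls is no result about these genes.

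**Figure D3:**
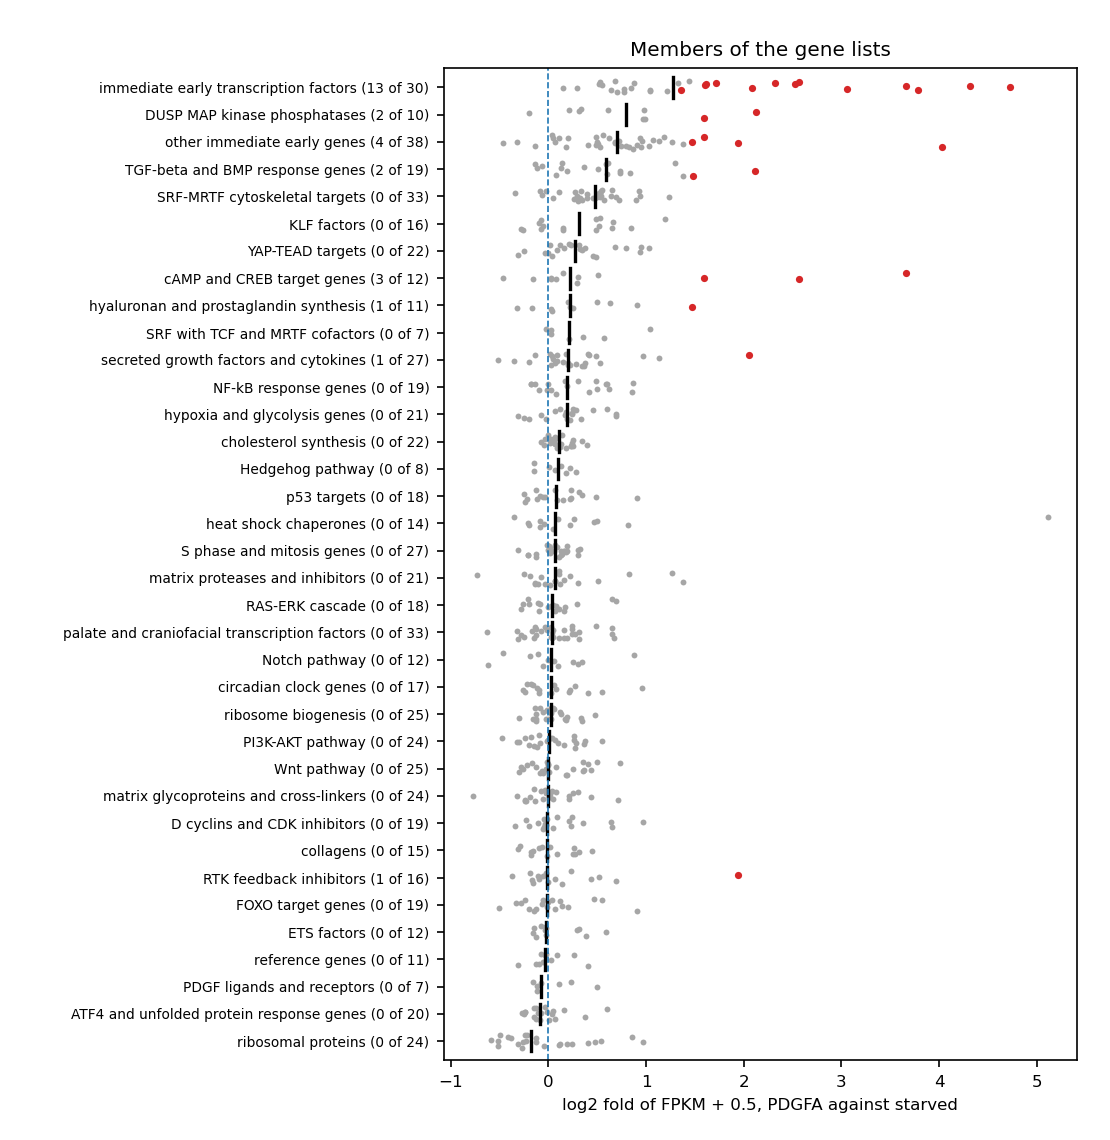
Log2 fold of FPKM + 0.5 of the compared members of 36 of the 37 gene lists (points, red where called), with the list's median (black bar) and the median of all compared rows (dashed line). The numbers beside a name give members called higher of members compared. Called members are found in 8 lists, and the point above 5 among chaperones is the Dnaja1 row, which joins that gene with a small RNA and was not called.

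Of 37 lists, 8 had a called member, and some genes stand in more than 1 of these lists. With 0.314% of all rows called, each list below would hold about 0 calls, so 0 called is no result about its genes. KLF factors (0 of 16 called, median 0.32), YAP-TEAD targets (0 of 22, median 0.27) and NF-kB response genes (0 of 19, median 0.20) stood above the starved value at their medians under every scaling tried. Klf5 was at 4.06 FPKM [2.63 to 5.48] and 9.91 [4.64 to 15.2], and Ccn2, a matricellular growth factor modulator, at 673 [459 to 888] and 1372 [537 to 2204]. Of 33 compared palate and craniofacial transcription factors 0 were called, 20 stood above the starved value, Foxd2 among them only through the minimum, 13 below, and the median was 0.03. Twist1 stood at 60.1 FPKM [43.3 to 74.0] and 94.4 [46.7 to 142], Dlx2 at 8.29 and 13.52, Tbx2 at 11.3 and 17.98, and Tfap2b at 7.72 and 4.83. Hedgehog (0 of 8), Wnt (0 of 25) and Notch (0 of 12) pathway genes were not called, and their medians lay between -0.0012 and 0.10. Sfrp2, a secreted Wnt antagonist, stood at 81.5 and 136 FPKM, and Hes1, a Notch target that growth factors also induce, at 21.0 and 39.0.

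Of the 11 called rows with copies, 6 were listed at 0 in starved cells and also with FGF1, where the interval has no width and any value with a lower bound above 0 is called. BC048507 (chr13:67863326-67863923) was listed at 18.8 FPKM [4.84 to 32.4] with PDGFA, and 4930503E24Rik (chr10:124469074-124524488) at 11.1 [3.23 to 18.9]. Pin1rt1, Gm5779, Gm4907 and Prdx6b were listed at 1.49, 1.201, 1.17 and 1.08 FPKM. Each shares words with a well expressed gene whose own intervals overlapped. For BC048507 that gene is Dynll1, at 66.6 FPKM without and 69.6 with PDGFA, for 4930503E24Rik it is Eif3i (131 and 149), and for Prdx6b it is Prdx6 (89.0 and 92.4). E130201H02Rik (0.0660 and 4.10 FPKM) shares words with Ybx1, at 219 and 207 FPKM, and Aldoart2 (0.316 and 2.77) with Aldoa, at 340 and 397. The ribosomal protein genes Rps16 (3.56 and 134 FPKM) and Rps29 (4.08 and 26.2) and the ATP synthase gene Atp5l (2.95 and 33.7) share from 39.2% to 69.6% of their words with copies. Of the 36 called rows 12 shared 3% or more of their words, where 17.5% of all compared rows did. How reads with several matches were assigned is not given in the sources used here, so these 11 rows are uncertain, and the part of shared sequence was not tested.

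A log2 fold of 1 or more without a call was found in 56 rows. Of these, 31 share under 3% of their words and join no small RNA, 14 share more, and 11 join a gene with a small RNA inside it. The 31 include further immediate early genes and their partners, named here after their values were seen. Ier2 stood at 18.02 FPKM and 46.0, the EGR corepressor gene Nab2 at 29.0 and 67.6, the kinase gene Pim1 at 7.96 and 18.7 and the pseudokinase gene Trib1 at 3.90 and 8.74. Plaur, the urokinase receptor gene, stood at 21.9 [14.9 to 27.3] and 53.2 [26.2 to 80.0]. Among the 31 are also Atoh8, a helix-loop-helix factor (1.55 and 4.53 FPKM), Dlk1, an imprinted Notch-like ligand gene (8.58 and 18.9), and Npas4 (1.17 and 3.12). With a looser limit, a difference above the root of the summed squared interval widths, 62 rows were higher (0.54%) and 8 lower (0.0697%), and 20 of the 56 were among the 62.

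Rows that join a gene with a small RNA stood out by size. Of 48 such rows, 11 (22.9%) had a log2 fold of 1 or more, where 0.802% of all compared rows did, and 0 were called. The Dnaja1 row, a chaperone gene joined with Mir207, stood at 4.76 FPKM [2.46 to 7.06] and 182 [1.98 to 301]. The Ddx5 row, an RNA helicase gene joined with Mir3064, stood at 99.5 and 683 FPKM, and the Igf2bp1 row, joined with Mir3063, at 7.30 and 78.7. Which transcript of the row carried the value cannot be told apart in a group value.

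No row was called lower. Among 8511 rows with at least 5 FPKM in starved cells, the most negative log2 folds were those of Rmrp and Rpph1, the RNA parts of RNase MRP and RNase P, whose starved values lay outside their own intervals. Col10a1 (chr10:34303612-34418528), a collagen of hypertrophic cartilage, stood at 36.6 FPKM [26.7 to 46.6] in starved and 18.5 [9.20 to 27.8] in PDGFA cells, which is 50.5% of the starved value. Agtr2 (chrX:21484624-21488833), the type 2 angiotensin receptor gene, stood at 89.3 [66.7 to 112] and 47.7 [25.4 to 69.9], or 53.4%. In both, the upper PDGFA bound passed the lower starved bound by under 5%, at 1.04 and 1.05 times it. Lars2, a mitochondrial leucyl-tRNA synthetase, stood at 470.1 and 243 FPKM, the matrix gene Postn at 697 and 407, and Chodl, a membrane lectin gene, at 111 and 66.6. Kcnj2, an inward rectifier potassium channel gene that has been tied to facial development, stood at 6.61 [5.10 to 8.12] and 3.86 [1.99 to 5.74]. Ubb-ps shares 91.1% of its words with other loci. After quantile normalization 9 rows were called lower, with Col10a1 and Agtr2 among them.

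**Figure D4:**
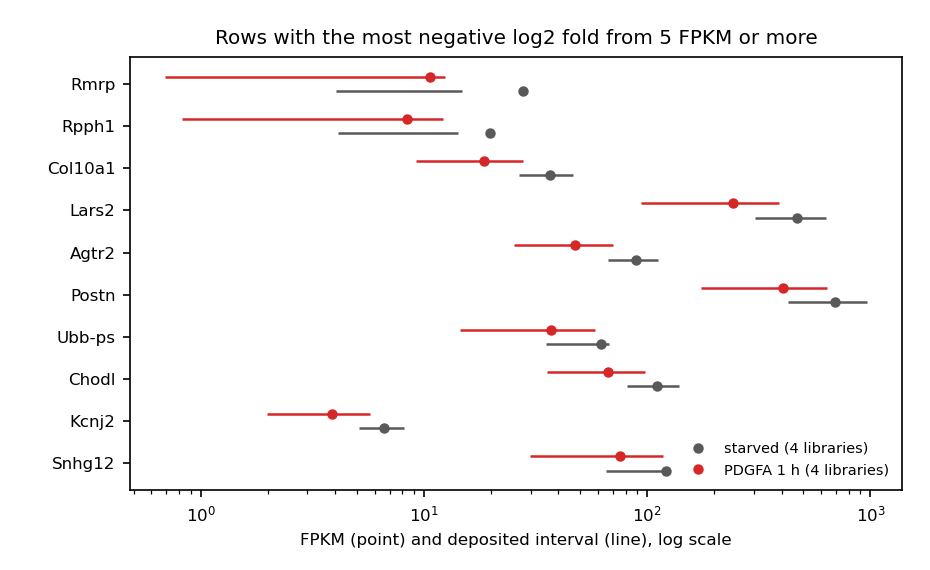
FPKM (points) and deposited interval (lines) on a log axis of the 10 rows with the most negative log2 fold among rows of at least 5 FPKM in starved cells. All pairs of intervals overlap, and the starved points of Rmrp, Rpph1 and Snhg12 lie outside their own lines.

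Fold and base composition moved together over all rows. The Spearman correlation between the log2 fold and the GC content of the matched transcript was 0.61 over 11472 rows, given as a description since all rows come from the same libraries. The median log2 fold ran from -0.19 in the lowest octile of GC content to 0.24 in the highest. The 25 called genes had a median GC content of 55.5%, against 50.3% for all rows, and 21 of them lay above that median. With the trend on GC content, length and level removed, 34 rows were higher and 32 of the 36 were among them, and the part of GC content in any single rise was not tested further. The lost calls were Cebpb, Id3, Jun and Phlda1, whose nearest bounds were 1.06-, 1.03-, 1.002- and 1.13-fold apart. All lay above the median GC content, as did 21 of the 25.

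**Figure D5:**
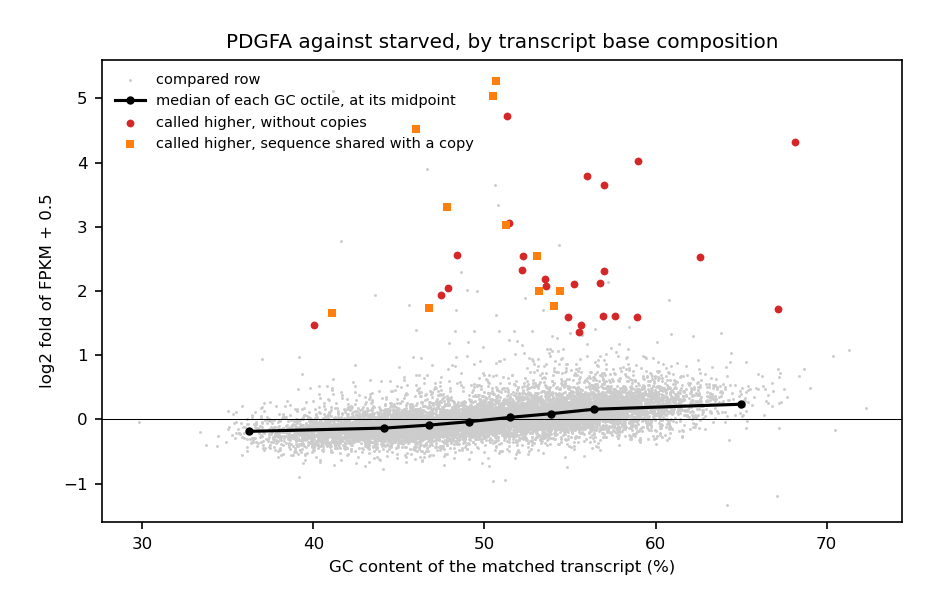
Log2 fold of FPKM + 0.5 against the GC content of the matched transcript for the 11472 compared rows. The black line joins the medians of 8 equal groups by GC content, which run from -0.19 to 0.24, and the coloured points are the 36 called rows.

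Of 10 mesenchyme markers 9 were compared, and the estimate of the other, Col1a1, failed. Several were abundant in both groups (Col1a2 at 2025 and 2405 FPKM, Vim at 1982 and 2582, Prrx1 at 233 and 206), while Pdgfra stood at 3.87 and 3.52. Of 10 palatal mesenchyme markers 9 were compared, with Osr1, Msx1, Barx1 and Lhx8 above 40 FPKM in both groups. The exception, Tbx22, stood at 0.0672 and 0.0812. Of 11 epithelial markers only Krt18 was compared, and Grhl2 and Esrp1 were listed at 0 in both groups. Of 8 endothelial markers 3 were compared, and the list summed to 11.9 FPKM in each group, with Tie1 listed at 0 in both. Of 8 blood and macrophage markers 1 was compared, and the list summed to 2.20 FPKM in starved and 2.06 in PDGFA cells. Its globin genes Hba-a1 and Hbb-y were listed at 0 in both groups. The 4 Y-linked genes stood lower with PDGFA, from 18.3 to 13.48 FPKM for Ddx3y and from 3.68 to 2.22 for Kdm5d, and Xist stood at 7.48 and 8.25, with overlapping intervals in all 5. The sex of the embryos in each group is not given, and its part in any result was not tested.

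With FGF1 and heparin the same members had the following values, compared by the authors' files with the same starved libraries and with another dose and cofactor. Egr3, Nr4a1, Junb, Dusp1 and Phlda1 stood at 20.4, 164, 75.1, 82.4 and 37.0 FPKM with FGF1, next to 26.5, 166, 75.6, 89.0 and 37.97 with PDGFA. Id1 stood at 23.0 FPKM and Id3 at 55.5 with FGF1, next to 76.3 and 134 with PDGFA. Acta1 and Actc1 stood at 24.6 and 1.49 FPKM with FGF1, next to 87.5 and 10.96. Egr1 and Ptgs2 stood higher with FGF1, at 116 and 93.7 FPKM next to 49.7 and 49.8. These differences between the ligands were not tested here.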

How the data were processed

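PolyA RNA was sequenced from mouse embryonic palatal mesenchyme cells. The submitters' processing notes name build mm10 and the tools Cuffdiff, TopHat and CASAVA. Versions, settings, annotation and the handling of multiply matching reads were not given in the sources used here. As deposited, the FPKM values, per the file headers, are 1 value per group with a lower and an upper bound on the same scale, made by the authors from each group's libraries. Read counts were not used here, so depth is unknown and no counting error can be given. Since FPKM is a value relative to the library total, a row can shift when others change.

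The rows carry RefSeq accessions, matched to the RefSeq gene table of GRCm38.p6 (22992 rows) or to GENCODE M21 (126), and 168 had no name. Coordinates are 1-based. The longest matched GENCODE M21 transcript gave each row's length, its GC content and how many of its 31-base words also occur elsewhere in the genome's transcripts. Where intervals lay apart and each value lay inside its own interval, the row was called, which describes group estimates and tests nothing between replicates. Values outside their own interval were found in 125 compared rows. A trend on GC content, log2 length and level was fitted with a cubic robust regression. The call rule and the trend were checked on simulated data. The simulated noise assumed a confidence level for the bounds, which is not given. The simulated trend had the cubic form that was fitted. Both checks therefore cover the code and not these data.

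The members, gene lists and markers were chosen with earlier results of these data known, and the lists with a high count hold genes known to respond. Named were all called rows, the 10 most negative log2 folds from 5 FPKM, up to 4 members of each list (called ones, then the largest absolute log2 fold from 5 FPKM), the PDGF system, the cell type markers and the rows nearest the limits. Alternatives covered pseudocount, minimum FPKM and length, scaling, trend, call rule, shared sequence and rows joined with a small RNA, the last added after the data were seen, as was leaving out rows sharing 3% or more of their words. Regression used statsmodels 0.14.6 and figures matplotlib 3.10.9, with pandas 2.3.3, numpy 2.4.6 and scipy 1.17.1 in Python 3.11.15. A few genes and 1 gene list are not reported here.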

Additional observations from a re-analysis of the deposited data

How the results depend on the processing

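The 36 rows called higher stayed between 24 and 40 under the alternatives, except that a difference above the root of the summed squared interval widths gave 62. Of the 36, 24 were left when rows sharing 3% or more of their words were dropped. Quantile normalization kept 32 and lost Aldoart2, E130201H02Rik, Id3 and Jun. Removal of the joint trend on GC content, length and level kept a different 32 and lost Cebpb, Id3, Jun and Phlda1. The 0 rows called lower became 1 with no minimum FPKM (Capn11, listed at 0 with PDGFA), 9 after quantile normalization and 8 by the root of summed squares. The 92 rows with a log2 fold of 1 or more became 175 with no minimum length, since short rows and rows with no matched length then entered. Lists with a called member numbered 8, and 11 by the root of summed squares. Over 183 named genes, 2650 of 2680 alternative values kept direction and call, 8 lost the call, 12 gained it, 10 not called rows changed sign, and no called row changed sign. Scalings shifted the median of all rows by under 0.1 on the log2 scale. Rows at the limits were Gch1 (0.557 and 1.001 FPKM) and A4galt (1.001 and 0.736) just inside 1 FPKM, Parvb (0.740 and 0.999) and Wdr78 (0.997 and 0.852) just outside it, Snord17 (238 nt) and Rmrp (271 nt) just inside 200 nt, and Snora74a (196 nt) and Snora23 (184 nt) just outside it. No paired analysis was possible because each group has 1 value per row, and leaving out each library was not run for the same reason, so what any single library contributes is unknown. Small changes could not be called: at the median a rise needed 2.46-fold.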

Other observations

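Lists on growth and metabolism held 0 calls, where 0.314% of all rows were called, so that lists of their size would hold about 0 at that share. Myc, the growth-promoting factor, stood at 26.1 FPKM [20.5 to 31.8] in starved and 41.1 [21.6 to 60.6] in PDGFA cells, and Cdkn1c, an imprinted CDK inhibitor gene, at 71.6 and 141, in a list of D cyclins and CDK inhibitors with 0 of 19 called (median log2 fold -0.0097). Of 27 compared S phase and mitosis genes 0 were called and 20 stood above the starved value (median 0.07), with Mcm2 at 16.04 and 19.9 FPKM and Mki67 at 7.01 and 5.98. Among 22 cholesterol synthesis genes 0 were called and 18 stood above it (median 0.11, and 0.0071 after quantile normalization), led by Srebf2, a sterol-sensing factor, at 72.3 and 95.02 FPKM. Of 21 hypoxia and glycolysis genes 0 were called (median 0.19), and the glucose transporter gene Slc2a1 stood at 41.3 and 67.2 FPKM. Ribosome biogenesis genes (0 of 25, median 0.02) and ribosomal protein genes (0 of 24, median -0.17) were not called. In the second list Rpl18 stood at 39.5 and 77.8 FPKM and Rpl19 at 70.2 and 46.7, and many members have copies.

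Lists on stress, survival and matrix also held 0 calls, which at 0.314% of all rows is no result about these genes, and their values follow. FOXO target genes (0 of 19, median -0.02) included Txnip at 21.2 and 14.7 FPKM and Cited2, a CBP-binding regulator, at 83.8 and 158. The p53 targets (0 of 18, median 0.08, and -0.03 after quantile normalization) included the antiproliferative gene Btg2 at 30.2 and 57.1 FPKM. Among ATF4 and unfolded protein response genes (0 of 20, median -0.08) the chaperone gene Hsp90b1 stood at 507 and 421 FPKM, and among heat shock chaperones (0 of 14, median 0.07) Hspa1b stood at 10.3 and 18.5. Circadian clock genes (0 of 17, median 0.02) included Nfil3, a leucine zipper repressor, at 20.3 and 39.8 FPKM. Collagens (0 of 15, median -0.01) included Col3a1 at 749.7 [604 to 896] and 903 [723 to 1084], and Col11a1 at 258 and 207. Matrix glycoproteins and cross-linkers (0 of 24, median -0.0088) included Loxl1 at 103 and 169.6 FPKM. Of 21 matrix proteases and inhibitors 0 were called (median 0.07), with the urokinase gene Plau at 39.3 and 70.2 FPKM. The 7 compared SRF cofactor genes had 0 called and a median of 0.21, with Mrtfa at 30.9 and 39.7 FPKM. The 11 compared reference genes had 0 called and a median of -0.03, with B2m at 620 and 566 FPKM. Of 7 neural and glial markers 3 were compared, with Tubb3 at 37.0 and 49.8 FPKM and Elavl3 at 0.0023 and 0.0092. Of 8 cartilage and bone markers 2 were compared, Sox9 at 15.7 and 16.3 FPKM and Col2a1 at 74.9 and 69.1.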
